A study of Mus musculus with 4 samples.

Results

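Insulin, AMPK and mTOR signalling genes were examined in the hearts of mice carrying a missense substitution in CTCF, a zinc-finger protein that shapes chromatin structure. The 10 genes were the rows of the deposited expression table named Insr, Igf1r, Irs1, Irs2, Pik3r1, Akt1, Akt2, Prkaa2, Mtor and Eif4ebp1, out of 55401 genes in the table. Heart tissue came from 4 mice aged 8 weeks with 1 library per mouse, 2 wild type and 2 Ctcf heterozygous. Heterozygous mice (Ctcf +/R567W) carry the CTCF-R567W substitution, introduced into C57BL/6N mice by CRISPR/Cas9, on 1 allele of Ctcf in every tissue, and the wild-type mice carry no edited allele. All mice were housed under specific pathogen-free conditions with free access to food. Sex, the time of collection and the feeding state at collection are not given in the sources used here. The comparison asks how gene expression in the adult heterozygous heart differs from wild type.

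Insulin and insulin-like growth factors bind receptor tyrosine kinases, which recruit the adaptors IRS1 and IRS2 and the lipid kinase PI3K, and the lipid it makes activates the kinase AKT. AKT promotes glucose uptake, restrains FOXO transcription factors and releases the kinase mTOR in complex 1, which raises protein synthesis, in part by inactivating the translation repressor 4E-BP1. AMPK senses low cellular energy, promotes glucose uptake and fatty acid oxidation, and restrains mTOR complex 1. In heart muscle these enzymes tie fuel use and growth to nutrient supply and are controlled mainly by phosphorylation, which RNA-seq does not measure.

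None of the genes was called different between genotypes. The values are TPM, a measure of transcript abundance per length that is relative, because each library sums to one fixed total. In the TPM as deposited, all 10 genes were lower in both heterozygous hearts than in both wild-type hearts. The same was true of 67.8% of the 10036 genes tested (those whose TPM averaged 1 or more). Pairs of values are given throughout as replicate 1 and then replicate 2. Transcripts of the mitochondrial genome took 64.7% and 61.1% of all TPM in wild type and 68.6% and 62.6% in heterozygotes. With their nuclear copies they left 21.2% and 24.0% for all other genes in wild type and 14.2% and 17.6% in heterozygotes. Each library was therefore divided by a median-of-ratios factor, the typical ratio of its genes to their mean over libraries (1.09 and 1.26 in wild type, 0.818 and 0.903 in heterozygotes), and the quotient is called scaled TPM below. Without this step the tested genes had a median log2 fold change of -0.35. Differences were tested with limma on log2(scaled TPM + 1), with p-values adjusted by Benjamini-Hochberg over every tested gene, and a gene was called at an adjusted p under 0.05 with a change over 1.5-fold.

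Of the 10 genes, 7 passed the filter of mean TPM and were tested, and Prkaa2, Irs1 and Irs2 lay under it. At the call threshold 0 of the 7 passed, against 2 of all tested genes (0.0199%), both lower in heterozygotes. At an unadjusted p under 0.05, 0 of the 7 were lower and 0 higher, against 5.71% and 6.49% of all tested genes. The fold change was below 0 for 7 of 7, from -0.32 to -0.03 with a median of -0.15, where 50.7% of all tested genes were below 0 and the median was near 0. Scaled TPM of the genotypes did not overlap for 4 of the 7 (Insr, Pik3r1, Akt2 and Eif4ebp1), all lower in heterozygotes, against 23.3% of tested genes lower and 23.7% higher. When TPM were instead recomputed after removal of the mitochondrial transcripts and their nuclear copies, 3 of the 7 did not overlap, against 17.5% of tested genes lower and 27.4% higher. These counts describe genes chosen by name and were given no test of their own. In bulk heart RNA, fewer cells of a type and less RNA per cell cannot be told apart.

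**Figure D1:**
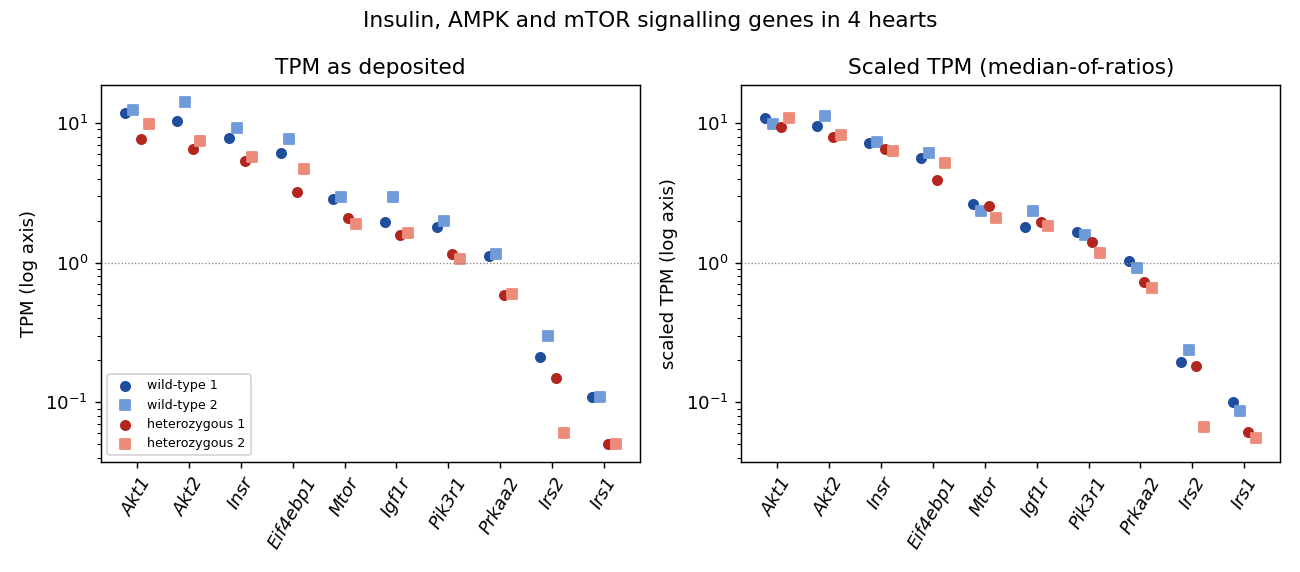
Deposited TPM (left) and scaled TPM (right), both on log axes, of the 10 genes in each library; circles are replicate 1 and squares replicate 2, blue wild-type and red heterozygous, and the dotted line marks 1 TPM. On the left every gene is lower in both heterozygous hearts, while on the right Akt1, Mtor and Igf1r overlap between genotypes.

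Because TPM are per length, levels can be compared between genes. By mean scaled TPM over the 4 libraries, Akt1 (10.2) and Akt2 (9.23) came first, and their ranges overlapped. Insr followed at 6.83 and Eif4ebp1 at 5.2, with ranges separate from their neighbours. Mtor at 2.40 and Igf1r at 1.97 overlapped each other. Pik3r1 at 1.45 and Prkaa2 at 0.832 were each separate from the next gene. Irs2 at 0.170 and Irs1 at 0.0762 were the lowest and overlapped. The order as deposited thus ran from the AKT kinases to the insulin receptor substrates, both under 0.5 TPM in every library, but the place of Irs1 depends on how reads were divided with an overlapping gene model, described below.

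The receptors were the insulin receptor Insr and the insulin-like growth factor 1 receptor Igf1r. Insr (ENSMUSG00000005534.10, mm10 chromosome 8, 3122061 to 3279617, minus strand) had 7.81 and 9.22 TPM as deposited in wild-type hearts and 5.35 and 5.68 in heterozygous hearts. Its scaled TPM were 7.18 and 7.32 against 6.54 and 6.29, so that both heterozygous hearts lay just under both wild-type hearts. The log2 fold change on the log2(scaled TPM + 1) scale, heterozygous minus wild-type, was -0.15 (SE 0.14, 95% interval -0.48 to 0.17, limma adjusted p = 0.656). Igf1r (ENSMUSG00000005533.10, chromosome 7, 67952827 to 68233668, plus strand) had 1.96 and 2.93 TPM in wild-type and 1.59 and 1.64 in heterozygous hearts. Its scaled TPM of 1.80 and 2.33 against 1.94 and 1.82 overlapped, with wild-type replicate 2 alone standing higher. The log2 fold change was -0.08 (SE 0.15, 95% interval -0.44 to 0.27, limma adjusted p = 0.830), and it was 0.04 without that library.

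The insulin receptor substrates, which dock PI3K to the activated receptors, were barely detected. Irs2 (ENSMUSG00000038894.7, chromosome 8, 10984681 to 11008458, minus strand) had 0.21 and 0.30 TPM as deposited in wild-type and 0.15 and 0.06 in heterozygous hearts. Its scaled TPM were 0.193 and 0.238 against 0.183 and 0.0664, so heterozygous replicate 2 was low and heterozygous replicate 1 almost met the wild-type values. Irs1 (ENSMUSG00000055980.2, chromosome 1, 82233101 to 82291416, minus strand) had 0.11 in both wild-type hearts and 0.05 in both heterozygous hearts. The table is rounded to 2 decimals, so these values hold 1 or 2 digits, and TPM keep no read depth from which a counting error could be given. Without the filter and with a pseudocount of 0.1, chosen after the values were seen, the log2 fold changes were -0.54 for Irs2 (95% interval -1.49 to 0.42) and -0.29 for Irs1 (-0.84 to 0.25).

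The level of Irs1 is uncertain for a reason that lies in its gene model. The last exon of Irs1, at mm10 chromosome 1, 82233101 to 82237604, lies in the 3′ UTR of Irs1 and contains all 2822 bases of a single-exon model on the opposite strand, Gm9747 (82233112 to 82235933), annotated as protein coding. Gm9747 had 2.18 and 2.63 TPM in wild-type hearts and 1.53 and 1.70 in heterozygous hearts, which is 19.8, 23.9, 30.6 and 34.0 times the TPM of Irs1 in the same libraries. Whether reads were assigned by strand is not given in the sources used here, so the division of reads between these models cannot be told. If the reads of both models were put on the length of Irs1, its TPM would be 0.783 and 0.922 in wild-type and 0.522 and 0.575 in heterozygous hearts. These combined values were not scaled, and they were lower in both heterozygous hearts, as were 67.8% of tested genes as deposited. After scaling, Gm9747 itself was 2.0 and 2.09 against 1.87 and 1.88, a log2 fold change of -0.08 (SE 0.13, limma adjusted p = 0.808). Other transcripts that overlap the 10 genes were at most 0.5 TPM in any library, and the highest was 9530052E02Rik, opposite Irs2, with 0.19 and 0.19 TPM in wild-type and 0.50 and 0.03 in heterozygous hearts.

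Pik3r1 encodes the alpha regulatory subunit of PI3K, which holds the catalytic subunit and binds the adaptors. Pik3r1 (ENSMUSG00000041417.15, chromosome 13, 101680563 to 101768217, minus strand) had 1.79 and 1.98 TPM in wild-type and 1.15 and 1.06 in heterozygous hearts. Its scaled TPM were 1.65 and 1.57 against 1.41 and 1.17, with no overlap. The log2 fold change was -0.19 (SE 0.14, 95% interval -0.52 to 0.14, limma adjusted p = 0.577). A pseudocount of 1 understates the change of a gene at this level, and with a pseudocount of 0.1 the estimate was -0.30 (95% interval -0.84 to 0.24). With a pseudocount of 1 it was -0.12 without heterozygous replicate 2.

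Akt1 and Akt2 encode the kinases that carry the signal on, and AKT2 is the form best known for insulin-stimulated glucose uptake. Akt2 (ENSMUSG00000004056.15, chromosome 7, 27591552 to 27640826, plus strand) had 10.3 and 14.1 TPM in wild-type and 6.54 and 7.46 in heterozygous hearts. Its scaled TPM were 9.46 and 11.2 against 8.00 and 8.26, with no overlap, and the log2 fold change was -0.31 (SE 0.15, 95% interval -0.67 to 0.06, limma adjusted p = 0.450), or -0.20 without wild-type replicate 2. The processed copy Akt2-ps had between 0.06 and 0.19 TPM. Akt1 (ENSMUSG00000001729.14, chromosome 12, 112653821 to 112674884, minus strand) had 11.8 and 12.5 TPM in wild-type and 7.65 and 9.81 in heterozygous hearts. Its scaled TPM of 10.8 and 9.90 against 9.36 and 10.9 overlapped, since heterozygous replicate 2 was the highest of the 4. The log2 fold change of Akt1 was -0.03 (SE 0.15, 95% interval -0.40 to 0.34, limma adjusted p = 0.940), and it turned to 0.03 when TPM were recomputed without mitochondrial transcripts and their copies, to 0.02 without wild-type replicate 1 and to 0.06 without heterozygous replicate 1.

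Prkaa2 encodes the alpha2 catalytic subunit of AMPK, the form known as the main one in heart and skeletal muscle. Prkaa2 (ENSMUSG00000028518.8, chromosome 4, 105029874 to 105109890, minus strand) had 1.12 and 1.15 TPM in wild-type and 0.59 and 0.60 in heterozygous hearts. Its scaled TPM were 1.03 and 0.913 against 0.722 and 0.664, with no overlap. Its mean lay under the filter, so the gene was not tested with the others. Without the filter the log2 fold change was -0.22 with a pseudocount of 1 (limma adjusted p = 0.669 over 24424 genes) and -0.43 with 0.1 (95% interval -1.06 to 0.19).

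Mtor encodes the kinase of both mTOR complexes, and Eif4ebp1 encodes 4E-BP1, the repressor of cap-dependent translation that mTOR complex 1 inactivates. Eif4ebp1 (ENSMUSG00000031490.6, chromosome 8, 27260329 to 27276674, plus strand) had 6.13 and 7.65 TPM in wild-type and 3.20 and 4.66 in heterozygous hearts. Its scaled TPM were 5.63 and 6.07 against 3.91 and 5.16, with heterozygous replicate 1 standing lowest and no overlap. The log2 fold change was -0.32 (SE 0.16, 95% interval -0.70 to 0.07, limma adjusted p = 0.458). Without heterozygous replicate 1 the estimate for Eif4ebp1 was -0.15, and without heterozygous replicate 2 it was -0.48. Mtor (ENSMUSG00000028991.15, chromosome 4, 148448611 to 148557683, plus strand) had 2.87 and 2.93 TPM in wild-type and 2.09 and 1.89 in heterozygous hearts. Its scaled TPM of 2.64 and 2.33 against 2.56 and 2.09 overlapped, and the log2 fold change was -0.07 (SE 0.14, 95% interval -0.41 to 0.28, limma adjusted p = 0.862). Without heterozygous replicate 2 the estimate for Mtor was 0.03.

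All 7 intervals held 0, and 5 of the 7 lay inside a 1.5-fold change in either direction, which is 0.58 on the log2 scale. Those of Akt2 and Eif4ebp1 reached past a 1.5-fold fall. With a pseudocount of 0.1, the intervals of 3 of the 7 lay inside that range. The standard errors of the 7 genes, from 0.14 to 0.16, were like the median of all tested genes, 0.16. With 2 mice per genotype an exact permutation test of a single gene cannot give a two-sided p below 0.333. Changes smaller than these intervals were not detectable. Larger ones can also have been missed, because the intervals are not adjusted for the number of genes tested and a call is.

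**Figure D2:**
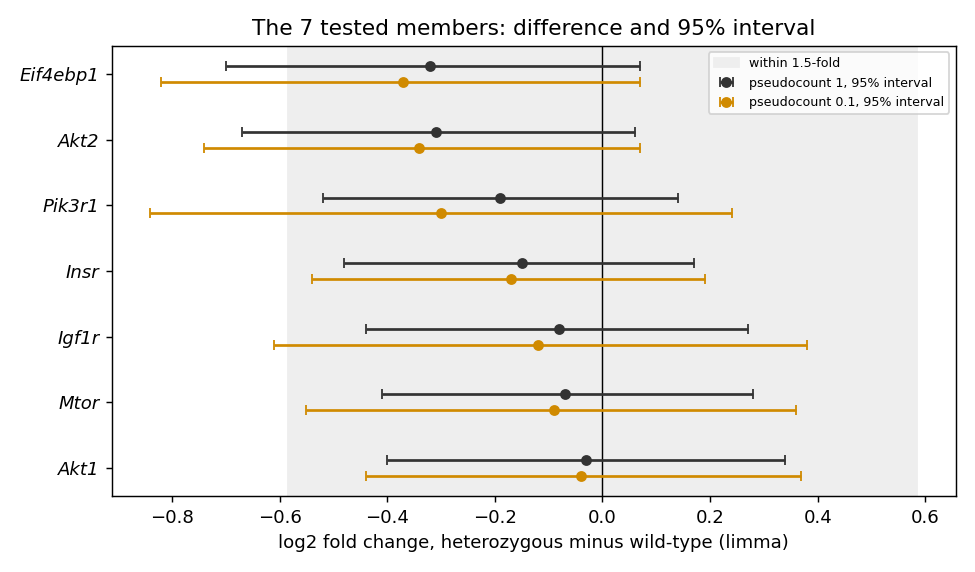
Log2 fold change (heterozygous minus wild-type, horizontal axis) of the 7 tested genes with 95% intervals from limma, for pseudocounts of 1 (dark) and 0.1 (orange); the grey band spans a 1.5-fold change in either direction. Every point lies below 0 and every interval holds 0, and with a pseudocount of 1 the intervals of Akt2 and Eif4ebp1 leave the band.

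Most of the genes, 7 of the 10, have a long transcript, a feature the choice by name did not use. By the longest transcript in the GENCODE annotation, Insr, Igf1r, Irs1, Irs2, Pik3r1, Prkaa2 and Mtor were each longer than at least 89.0% of tested genes, whose median was 3207 bases. The bases, exons and 3′ UTR shares of single genes below are those of the transcript with the longest coding sequence. Igf1r was the longest at 11409 bases, of which 63.7% was 3′ UTR. The transcript of Mtor, in 58 exons, was mostly coding, with 9.61% in the 3′ UTR. Eif4ebp1 was the shortest at 1997 bases, of which 78.3% was 3′ UTR, and Akt1, with 2690 bases, also lay under the median. After a correction of each library for transcript length and GC content, which was added after the values were seen, the 7 log2 fold changes lay between -0.36 for Akt2 and -0.06 for Igf1r.

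Ratios of partner genes within a library do not depend on how the library was scaled. Of 12 ratios, 7 did not overlap between genotypes, 3 lower and 4 higher in heterozygotes. Each of these 7 had the smallest exact permutation p the design allows, 0.333 (two-sided, 0.571 after adjustment over the 12), so no ratio passed a test. Among single tested genes, scaled TPM did not overlap for 23.3% lower and 23.7% higher, and no such share was computed for ratios of other genes. For a regulatory and a catalytic subunit of PI3K, Pik3r1 to Pik3ca was 0.810 and 0.576 in wild-type and 0.356 and 0.422 in heterozygous hearts. This was the largest difference among the ratios, at -0.82 on the log2 scale, or 0.568-fold. It combined the lower Pik3r1 with scaled TPM of Pik3ca of 2.03 and 2.73 in wild-type and 3.95 and 2.78 in heterozygous hearts (log2 fold change 0.36, SE 0.19, limma adjusted p = 0.460). As deposited, Pik3ca overlapped between genotypes. Pik3r2, a regulatory subunit with more TPM than Pik3r1, had scaled TPM of 5.21 and 5.08 against 4.35 and 5.60, which overlapped (log2 fold change -0.05).

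The 2 catalytic AMPK subunits also stood in a lower ratio in heterozygotes. Prkaa2 to Prkaa1 was 0.453 and 0.354 in wild-type and 0.278 and 0.308 in heterozygous hearts, a log2 difference of -0.45. Prkaa1, the alpha1 subunit, exceeded Prkaa2 in all 4 libraries, and its scaled TPM were 2.27 and 2.58 against 2.59 and 2.16, which overlapped (log2 fold change -0.02, SE 0.14). Among the other AMPK subunits, Prkab1 to Prkab2 (beta subunits) was 5.22 and 5.92 against 6.81 and 7.44, and Prkag1 to Prkag2 (gamma subunits) was 3.18 and 3.00 against 2.79 and 2.16. All of these AMPK ratios were apart between the genotypes, the alpha and gamma ratios lower in heterozygotes and the beta ratio higher.

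Akt1 to Akt2 was 1.14 and 0.883 in wild-type and 1.17 and 1.32 in heterozygous hearts, a log2 difference of 0.30, and wild-type replicate 1 lay close to heterozygous replicate 1. The kinase relative to the core subunit of mTOR complex 2, Mtor to Rictor, was 0.935 and 0.821 against 1.01 and 1.31, a log2 difference of 0.40. Rptor to Rictor, the defining subunits of complexes 1 and 2, was 0.349 and 0.415 against 0.437 and 0.653, a log2 difference of 0.49. Both of these ratios rest on Rictor, whose scaled TPM were 2.82 and 2.83 in wild-type and 2.52 and 1.59 in heterozygous hearts (log2 fold change -0.34, SE 0.18, limma adjusted p = 0.463).

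The remaining 5 ratios overlapped. Insr to Igf1r was 3.98 and 3.15 in wild-type and 3.36 and 3.46 in heterozygous hearts, a log2 difference of -0.05. Eif4ebp1 to its paralog Eif4ebp2 was 2.56 and 2.41 against 2.05 and 2.57 (log2 fold changes of -0.32 for Eif4ebp1 and -0.18 for Eif4ebp2). Eif4ebp1 to its target Eif4e, the cap-binding protein, was 0.310 and 0.607 against 0.228 and 0.467, and here the replicates of each genotype differed more than the genotypes. Mtor to Rptor and Irs1 to Irs2 differed by -0.09 and 0.27 on the log2 scale. The Irs1 to Irs2 ratio rests on TPM of 0.05 to 0.30 and on the unknown division of reads between Irs1 and Gm9747.

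**Figure D3:**
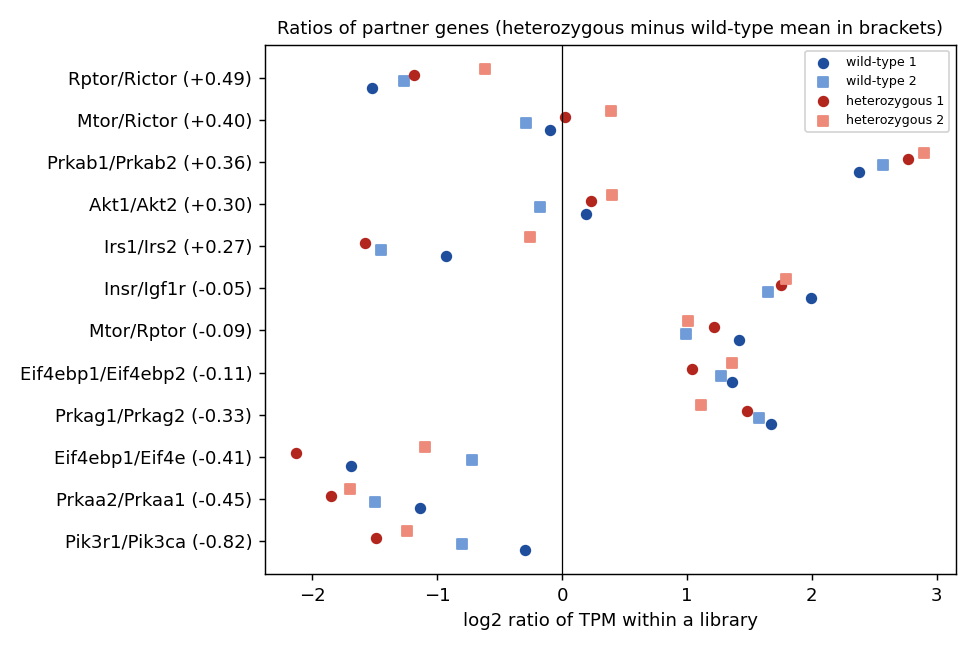
Log2 ratio of TPM within each library (horizontal axis) for 12 pairs of partner genes, with the heterozygous minus wild-type difference of means in brackets; circles are replicate 1 and squares replicate 2, blue wild-type and red heterozygous. Pik3r1/Pik3ca and Prkaa2/Prkaa1 are lower and Rptor/Rictor and Mtor/Rictor higher in both heterozygous hearts, and Eif4ebp1/Eif4e spreads more within than between genotypes.

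The wider pathways held 119 further genes in 7 lists, of which 118 were in the table and 90 were tested. Of the 90, 0 were called, and their median log2 fold change was -0.04. At an unadjusted p under 0.05, 5 of the 90 were lower (5.56%, against 5.71% of all tested genes) and 2 higher (2.22%, against 6.49%). Scaled TPM did not overlap for 28 lower (31.1%, against 23.3%) and 18 higher (20.0%, against 23.7%).

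Among ligands, receptors and binding proteins, 7 of 12 genes were tested, 2 were lower at an unadjusted p under 0.05, and the median was -0.12. Igfbp5, a binding protein of insulin-like growth factors, had 3.15 and 3.71 scaled TPM in wild-type and 1.72 and 2.32 in heterozygous hearts (log2 fold change -0.56, SE 0.16, limma adjusted p = 0.335). Igf2r, the receptor that clears IGF2, had 3.54 and 3.45 against 2.59 and 2.45 (log2 fold change -0.35). Igfbp6 had 8.51 and 10.6 against 6.81 and 9.41, which overlapped. Of the ligands, Igf2 had 6.12 and 5.64 against 5.90 and 7.02 and Igf1 between 0.443 and 0.897, while Ins2 was listed at 0 in all 4 libraries and Ins1 was under 0.2.

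Among adaptors, PI3K subunits and early inhibitors, 12 of 19 were tested, 0 passed an unadjusted p under 0.05 and the median was -0.04. Besides Pik3ca, the rule named Grb14, an inhibitor of the insulin receptor, with 23.1 and 25.0 against 17.6 and 22.5 scaled TPM, and Pik3r3, another regulatory subunit, with 3.30 and 2.62 against 3.00 and 2.11. In the list of AKT activation, brakes and substrates, 12 of 15 were tested, 1 was lower at an unadjusted p under 0.05 and the median was -0.04. That gene was Pik3ip1, a transmembrane inhibitor of PI3K, with 7.38 and 6.45 against 3.91 and 5.14 (log2 fold change -0.52, SE 0.17, limma adjusted p = 0.346). Tbc1d4, the AKT substrate that restrains glucose transporter traffic, had 36.6 and 44.6 against 34.5 and 24.3 (log2 fold change -0.47, SE 0.22). Akt1s1, an mTOR complex 1 inhibitor that AKT phosphorylates, had 7.13 and 7.49 against 7.91 and 9.22.

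The AMPK list had the highest median of the 7, 0.06, with 15 of 18 genes tested and 2 higher at an unadjusted p under 0.05. Tbc1d1, an AMPK substrate that acts like TBC1D4, had 3.71 and 4.39 scaled TPM in wild-type and 6.24 and 6.10 in heterozygous hearts. Its log2 fold change was 0.51 (SE 0.14, limma adjusted p = 0.335). Prkag2, the gamma2 subunit known for mutations in hereditary cardiomyopathy, had 8.17 and 7.29 against 10.1 and 11.2 (log2 fold change 0.42, SE 0.15, limma adjusted p = 0.372). Prkab1 had 9.97 and 12.0 against 14.8 and 14.3 (log2 fold change 0.38, SE 0.16). The higher levels hold for scaled TPM, since as deposited all 3 genes overlapped between genotypes.

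In the mTOR complexes and the TSC-Rheb switch, 11 of 16 were tested, 0 passed an unadjusted p under 0.05 and the median was -0.06. Apart from Rictor, the rule named Mapkap1, a further subunit of complex 2, with 3.47 and 3.25 against 2.42 and 3.22, and Tsc2, the brake on mTOR complex 1, with 33.9 and 29.7 against 37.9 and 35.1. The higher level of Tsc2 depends on the scaling, since as deposited it was lower in both heterozygous hearts (36.8 and 37.4 against 31.0 and 31.7). Its log2 fold change was 0.20 after scaling and 0.26 without mitochondrial transcripts and their copies. Among 20 tested genes of amino acid sensing, the median was -0.06. Without overlap, 9 were lower and 4 higher, against 23.3% and 23.7% of all tested genes. At an unadjusted p under 0.05, 1 was lower. It was Rraga, a small GTPase that brings mTOR complex 1 to the lysosome, with 2.06 and 2.30 against 1.66 and 1.11 (log2 fold change -0.42, SE 0.16, limma adjusted p = 0.384). Lamtor1 and Lamtor2, subunits of its lysosomal anchor, had log2 fold changes of -0.48 and -0.38. The other subunits of the anchor, Lamtor3, Lamtor4 and Lamtor5, had 0.20, 0.03 and -0.19. All 13 translation targets were tested, with a median of -0.04. Of these, 6 were lower and 4 higher without overlap, against those same shares of all tested genes. Eef2, the elongation factor, had 71.1 and 85.0 against 54.3 and 58.3 (log2 fold change -0.46, SE 0.18, limma adjusted p = 0.394). Rps6 and Eif4g1 both had log2 fold changes of -0.31.

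**Figure D4:**
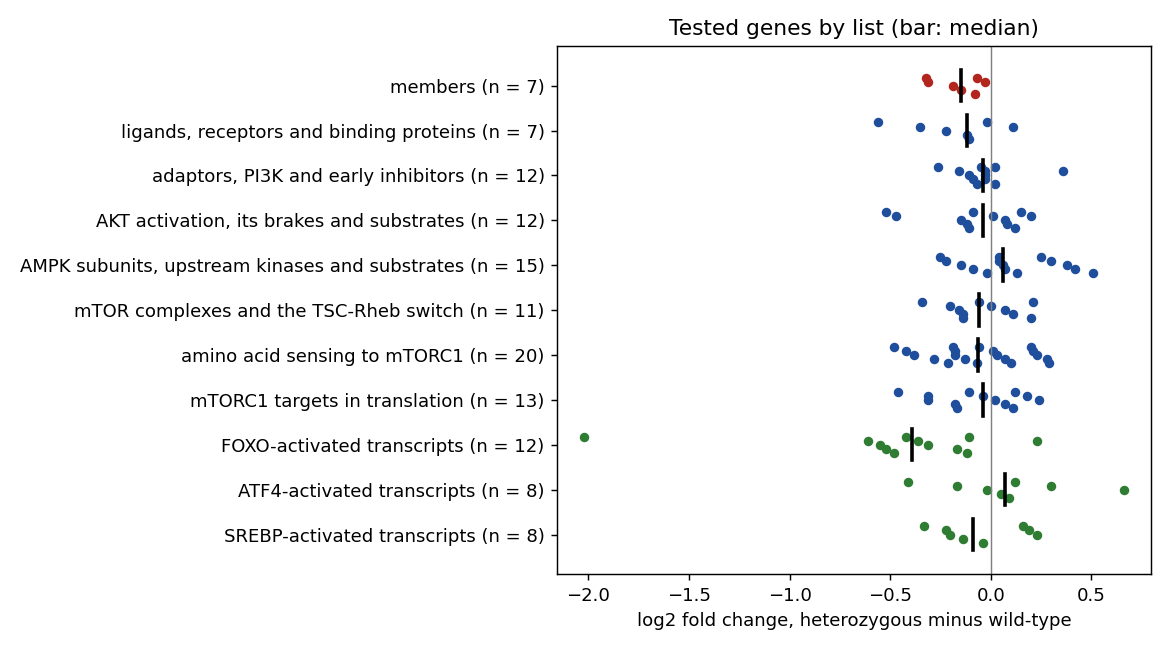
Log2 fold change (heterozygous minus wild-type, horizontal axis) of each tested gene among the members (red), the 7 pathway lists (blue) and 3 lists of target transcripts (green), with the median as a black bar and the number tested in brackets. The pathway medians lie between -0.12 and 0.06, the FOXO list lies lowest with a median of -0.39, and Pdk4 stands apart at -2.02. The lists were chosen with earlier results of these data known.

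Transcripts that FOXO, ATF4 and SREBP factors are known to activate were listed as distant readouts of AKT and mTOR signalling. All 12 FOXO targets were tested and 0 were called. Their median log2 fold change was -0.39, 9 of the 12 did not overlap and were lower in heterozygotes (background 23.3%), and 5 were lower at an unadjusted p under 0.05 (background 5.71%). The list was chosen with earlier results of these data known, so its counts carry no test against that background. Pdk4, the kinase that restrains pyruvate oxidation, had 13.9 and 7.78 scaled TPM in wild-type and 2.37 and 1.34 in heterozygous hearts. Its log2 fold change was -2.02 (SE 0.29, limma adjusted p = 0.174), and it passed the call threshold under 4 of the alternatives, among them TPM as deposited. PPAR and glucocorticoid receptors also activate this gene. The other 4 at an unadjusted p under 0.05, named after their values were seen, were Gadd45a (-0.61), Gabarapl1 (-0.55), Fbxo32 (-0.48) and Cited2 (-0.42). Bcl6 was the highest at 0.23 and overlapped. Since these genes are shared with other regulators and AKT activity was not measured, the counts describe transcripts only.

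Of 14 ATF4 targets, 8 were tested, 0 passed an unadjusted p under 0.05 and the median was 0.07. The extremes were Asns, asparagine synthetase, with 0.680 and 1.10 scaled TPM against 1.17 and 3.04 (log2 fold change 0.66), and Vldlr with 20.6 and 22.4 against 18.1 and 13.9 (-0.41). Of 13 SREBP targets, 8 were tested, 0 passed an unadjusted p under 0.05 and the median was -0.09, with Insig1, a brake on sterol synthesis, the lowest at -0.33.

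Among the members and pathway genes tested, 97 in all, the pattern over the 4 libraries most like each member was found as the smallest Euclidean distance between gene-centred log2 values. Insr lay nearest to Eif4b, a translation initiation factor, at 0.015, and Akt2 nearest to Eif4g1 at 0.038. Pik3r1 lay nearest to Fnip2 (0.040), Akt1 to Tti1 (0.048), Igf1r to Nprl2 (0.051), Eif4ebp1 to Grb14 (0.054) and Mtor to Flcn (0.071). With 4 libraries these distances are descriptions and carry no test.

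Defining markers of the labelled tissue were present, and the marker sums were not even between the hearts. All 8 ventricular cardiomyocyte markers were tested, and their summed scaled TPM were 23383 to 24889 in wild-type and 20060 to 23971 in heterozygous hearts. The sum is mostly Myh6 and Myl2, and the median log2 fold change of these 8 was -0.28. Of them, 4 were lower without overlap (Pln -0.48, Actc1 -0.46, Myl3 -0.44 and Myl2 -0.39) and 0 higher, against 23.3% and 23.7% of all tested genes. The 4 atrial markers summed to 806 and 2354 against 1918 and 3281, lowest in wild-type replicate 1, and the 5 erythroid markers to 930 and 987 against 965 and 2120, highest in heterozygous replicate 2. The 8 endothelial markers summed to 281 and 284 against 311 and 361, but without Egfl7, the most abundant of them, to 84.8 and 91.1 against 76.3 and 84.2. Of these 8, 6 had fold changes below 0, and Cldn5 (-0.50), Pecam1 (-0.43) and Kdr (-0.21) were lower without overlap. Egfl7 (0.39) was higher without overlap, at 197 and 193 scaled TPM against 235 and 277. The shares over all tested genes were the same 23.3% lower and 23.7% higher. Sums were, in the same order, 70.4 and 93.5 against 64.9 and 69.1 for 8 fibroblast markers, 82.9 and 76.2 against 59.6 and 76.4 for 7 mural cell markers, and 24.2 and 24.7 against 20.6 and 28.7 for 8 leukocyte markers. The median log2 fold changes were -0.17 for the fibroblast, -0.14 for the mural cell and -0.02 for the leukocyte markers. They were largest for the atrial (0.83) and erythroid (0.53) markers, with fold changes above 0 for 4 of 4 and 5 of 5. Of these, 0 atrial markers and 1 erythroid marker were higher without overlap, against 23.7% of all tested genes. The 6 adipocyte markers were at most 0.781 in sum, and 0 of them passed the filter. The part of any of these cell types in the values of the members and FOXO targets was not tested. Ctcf, in which the substitution lies, had 6.66 and 7.59 TPM as deposited in wild-type and 6.14 and 5.20 in heterozygous hearts, and a log2 fold change after scaling of 0.10 (SE 0.16, limma adjusted p = 0.814). A missense substitution need not change the level, so this does not check the genotype labels.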

How the data were processed

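Heart RNA of 4 mice was measured by RNA-seq after mRNA capture with beads. The authors trimmed reads with Trim Galore, aligned them to mm10 with STAR, quantified genes with RSEM and deposited TPM per gene, rounded to 2 decimals. The authors tested read counts with DESeq2. Read counts were not analysed here, and their test was not repeated. Depth and the strand setting of the counting are not given in the sources used here.

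Columns were matched to mice by genotype and replicate number. The 10036 genes whose TPM averaged 1 or more were divided by median-of-ratios factors over genes above 0 in all libraries, and log2 was taken after adding 1. limma (3.58.1, R 4.3.3) fitted the comparison (lmFit, then eBayes with a trend; tests were two-sided). Nuclear mitochondrial copies were found with BLAST+ (2.17.0; 95% identity over 80% of the length). Coordinates, exons and lengths are from GENCODE for mm10, in which 55141 gene identifiers were found. The fit was run on simulated data with larger changes than those of the members, so that run cannot show whether changes of their size would be found. The limma p-values rest on the spread between 2 mice per genotype, drawn by eBayes toward the spread of other tested genes of similar level.

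The members and lists were chosen with earlier results of these data known. Genes were named by rule: all members, both genes of each ratio, up to 3 genes with the smallest p in each pathway list, and the highest and lowest of each readout list. Ligands, Pik3r2, Gm9747, Lamtor3 to Lamtor5, 4 FOXO targets and single cell type markers were added after their values were seen. Some genes that the rule names are not reported here. For cell type markers, list sums are given, with single genes only in the ventricular and endothelial lists. The alternatives were other pseudocounts, filters, scalings, variance models and thresholds, a replicate block, a length and GC correction, and each library left out.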

Additional observations from a re-analysis of the deposited data

How the results depend on the processing

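Of the members, 0 were called under any of 17 alternatives, and 111 of 116 single-gene values kept their sign. For these signs, values from deposited TPM and from TPM without mitochondrial transcripts were taken relative to the median of all tested genes. The lowest limma adjusted p, 0.0806 for Eif4ebp1, came from the fit without mitochondrial transcripts. That fit was not centred, and the median log2 fold change of its genes was -0.31. The reversals were Akt1 without mitochondrial transcripts and copies (0.03), and values with a library left out, which ranged from -0.13 to 0.06 for Akt1, -0.21 to 0.04 for Igf1r and -0.17 to 0.03 for Mtor; without a reversal they ranged from -0.48 to -0.15 for Eif4ebp1, -0.42 to -0.20 for Akt2, -0.26 to -0.12 for Pik3r1 and -0.18 to -0.13 for Insr (the libraries behind the reversals are named with each gene above). With a library left out, the lone mouse of a genotype was assumed to vary like the others. Of the 90 pathway genes, 0 were called under any alternative and 7 had an unadjusted p under 0.05. Signs also changed for Prkaa1 (-0.12 to 0.07), Eif4e (-0.38 to 0.42), Prkab2 (-0.02 to 0.10), Pik3r3 (-0.34 to 0.02), Bcl6 (-0.20 to 0.66) and Ctcf (-0.07 to 0.27) with a library left out (heterozygous replicate 2 for Prkaa1 and Pik3r3, heterozygous replicate 1 for Eif4e, Prkab2, Bcl6 and Ctcf, and wild-type replicate 2 for Prkaa1 and Eif4e), for Prkaa1 at deposited TPM relative to the median of all genes (0.01) and without mitochondrial transcripts and copies (0.03), and for Eif4e at deposited TPM relative to that median (-0.04). Leaving out a library changed the sign of 7 of 48 ratio differences.

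Calls over all tested genes were 2, and became 4 with a pseudocount of 0.1, 0 without the filter, 13 with TPM as deposited, 14 without mitochondrial transcripts, 6 without their copies as well, 5 with robust eBayes, 1224 at an unadjusted p under 0.05, and 11 to 17 with a library left out. The causes were not tested.

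Same-numbered libraries are different mice, and the correlation of their deviations from the mean of each genotype was 0.101. With a replicate block there were 10 calls over all tested genes, or 5 with the length and GC correction on top (an alternative chosen after seeing the data), and 0 among members and pathway genes in both fits. Pdk4 was called with the block (adjusted p = 0.00729), with the block and that correction (0.0476), with TPM as deposited (0.00884) and without mitochondrial transcripts (0.0342). Its log2 fold change lay between -2.40 and -1.64 with a library left out.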
